A study of Mus musculus with 8 samples.

Results

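The regions described here are 639 stretches of open chromatin in mouse embryonic stem cells that lie away from the ends of protein-coding genes. They lie both inside and between genes, and their accessibility was at least 2-fold lower in paused cells. They were picked from 134407 peaks by the values themselves. On chromosomes 1 to 19, every paused value had to be below every control value, the mean control value had to be at least 20 and at least 2 times the mean paused value, and the peak centre had to lie more than 1 kb from both ends of every protein-coding gene and from every tRNA gene. Of 115228 distal autosomal peaks, 79964 had a mean control value of at least 20, and the 639 members are 0.799% of these. Because the choice used the comparison of paused with control cells, the size of the fall in the members is a description and was not tested.

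The cells were of the wild-type E14 line, grown on gelatin in serum with LIF. They were kept either in this medium alone (control) or with 200 nM INK128 added for 24 h (paused), with 4 libraries in each group and 50000 live cells in each library. Both groups are a single laboratory line, and serum and LIF were present in the controls as well as in the paused cells. The labels do not say whether the 4 libraries of a group came from separate cultures, so p-values measure only the spread between these libraries, which may be partly technical.

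ATAC-seq reads out accessible DNA, because the Tn5 transposase inserts sequencing adapters where no nucleosome is in the way. Accessible regions away from gene ends are often enhancers, where transcription factors bind and act on promoters at a distance. INK128 inhibits mTOR, the kinase that couples nutrients and growth factors to protein synthesis, and mTOR inhibition puts embryonic stem cells into a dormant state that resembles the diapause of the early embryo. AP-1, a dimer of Fos and Jun family proteins, is a factor downstream of growth factor signalling that is known for binding distal elements.

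Sequence could be read only where a peak overlapped one of the RefSeq promoter windows of assembly GRCm38.p6, which run from 250 bases before to 50 after a start site. This was so for 8 members (1.25%), against 2.70% of distal peaks of a mean control value of at least 20. In 4 of the 8 the centre of the peak lay in the window, in each case that of a long non-coding RNA gene. These 4 are shown, each cut to the bases inside the peak and given 5′ to 3′ on the strand of the gene, because 3 of them hold the same letters. Capitals mark matches to any of 11 short motifs.
8030442B05Rik, chr2:11398626-11398750, minus strand: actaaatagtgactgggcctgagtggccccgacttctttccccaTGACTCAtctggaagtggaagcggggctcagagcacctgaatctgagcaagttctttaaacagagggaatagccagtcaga
Gm35388, chr14:73103052-73103207, minus strand: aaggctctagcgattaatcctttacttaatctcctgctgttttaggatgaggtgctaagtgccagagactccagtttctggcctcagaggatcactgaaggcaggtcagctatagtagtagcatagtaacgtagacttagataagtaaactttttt
Gm33016, chr12:71337257-71337386, plus strand: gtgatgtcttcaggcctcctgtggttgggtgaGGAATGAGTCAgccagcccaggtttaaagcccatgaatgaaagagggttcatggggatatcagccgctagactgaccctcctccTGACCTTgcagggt
Gm33398, chr7:129764621-129764791, minus strand: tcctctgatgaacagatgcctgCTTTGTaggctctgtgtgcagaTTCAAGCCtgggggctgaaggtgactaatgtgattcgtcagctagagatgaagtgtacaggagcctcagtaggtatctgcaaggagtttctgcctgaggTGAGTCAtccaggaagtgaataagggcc

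The motifs searched, on both strands, were AP-1 (TGANTCA), E-box (CACGTG), SMAD (CAGAC), TEAD (GGAATG), Foxh1 (AATNNACA), octamer (ATGCAAA), Sox (ACAAAG), Esrrb (AAGGTCA), Klf (GGGNGGG), CRE (TGACGT, part of the full element) and the B box of polymerase III genes (TTCNANNC). The AP-1 letters were in 3 of the 4 stretches, at 8030442B05Rik, Gm33016 and Gm33398. A 150-base stretch from the middle of each of 32815 promoter windows held them in 4.34% of cases. A closer comparison is with 1699 distal peaks, of a mean control value of at least 20 and with at least 100 bases in a window. Of these, 5.24% held the letters. AP-1 was singled out from the motifs searched because it recurred in these stretches. In Gm33016 the AP-1 match overlaps a TEAD match, and an Esrrb match lies nearer the end. In Gm33398 a Sox and a B box match were also found, with 10.2% and 21.4% of 150-base stretches holding these, and 7.79% and 2.39% holding TEAD and Esrrb letters. The stretch at Gm35388 held no match. A match says only that these letters are present, and 4 stretches are too few to describe the other members.

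The values at these 4 peaks fell without overlap, as the choice required. At Gm33398 the control values were 34.9, 34.6, 40.6 and 47.0 in replicates 1 to 4 and the paused values were 10.4, 15.8, 21.7 and 17.6, which is 39.3 ± 5.84 against 16.4 ± 4.70 (SD, n = 4). The start site of this gene lay 21 bp from the peak centre, the nearest of the 4. At Gm33016 the control values were 23.9, 34.6, 33.9 and 11.8 and the paused values 5.77, 7.89, 10.9 and 11.7. Here the lowest control library, replicate 4, was almost level with the highest paused library. At 8030442B05Rik the means were 24.5 and 10.2, and at Gm35388 they were 24.4 and 8.65.

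The values are reads per 201 bp peak divided by 1 factor per library, and 3 reads were worth 1.04 in control replicate 1, the deepest library, and 3.46 to 5.08 in the other 7. Reads in peaks ran from 4434037 to 21161767 in controls, where replicate 1 stood apart from a range of 4434037 to 6262445 for the others, and from 5216700 to 7238935 in paused libraries. All 8 stem cell marker genes looked at, such as Pou5f1 and Sox2, had a peak within 2 kb of an end, the strongest per gene having a mean control value of 29.4 to 314. So had 5 of 6 fibroblast genes (38.97 to 147) and 4 of 5 endoderm genes (52.3 to 141), with none at Col3a1 and Gata4. An open promoter is not a measure of expression, and the part of other cells in the results was not tested.

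The members were weak to middling peaks in control cells and weaker still in paused cells. The median member value was 24.5, 26.3, 30.5 and 27.9 in control replicates 1 to 4 and 12.7, 11.04, 12.4 and 11.7 in paused replicates 1 to 4. Summed over the members, the values came to 19310 ± 1557 in control and 8420 ± 525 in paused libraries (SD, n = 4), a ratio of 2.29 with no overlap. Among all 79964 distal peaks of a mean control value of at least 20, the library medians were instead slightly higher in paused cells, 42.7 to 45 against 39.4 to 41.2. Among controls, replicate 3 was the highest library at 263 members and replicate 1 at 49. A lower value in a bulk library cannot tell fewer cells with the region open from less opening in each cell.

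**Figure D1:**
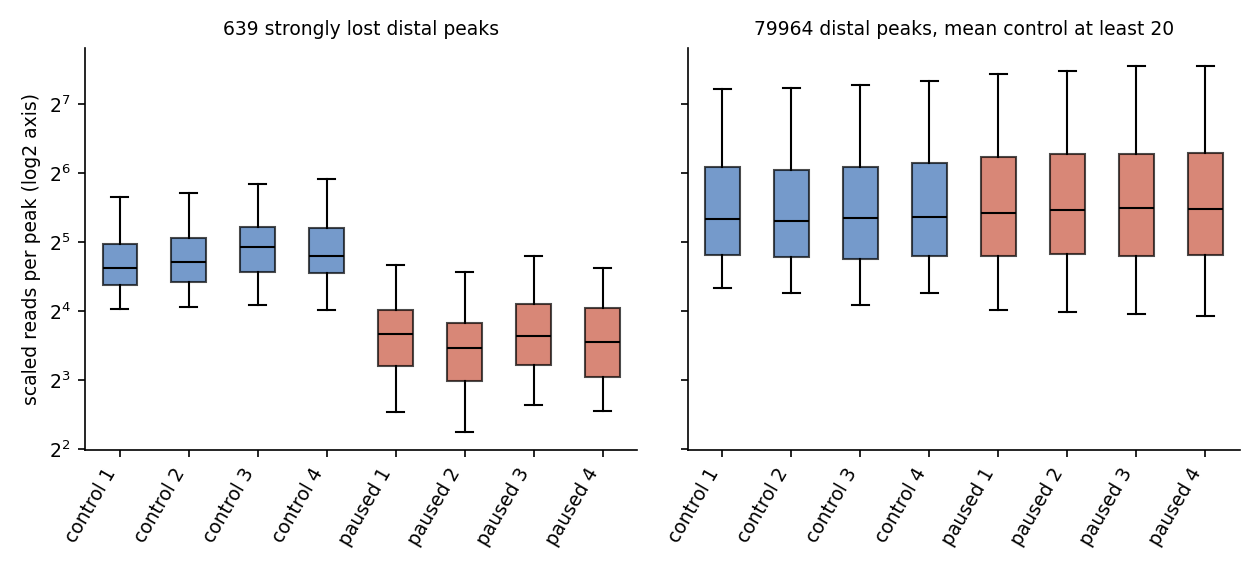
Scaled reads per peak in each of the 8 libraries, on a log2 axis, for the 639 members (left) and for all 79964 distal peaks of a mean control value of at least 20 (right). Boxes give the quartiles and median, whiskers the 5th and 95th percentiles; the paused medians of the members lie between 11.04 and 12.7 and the control medians between 24.5 and 30.5, a separation that the choice of members fixes.

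Most members passed the 2-fold mark by little. The median ratio of mean control to mean paused value was 2.23, with 145 members at 2.5 or more and 39 at 3 or more. The log2 change of log2(value + 1), fitted with limma-trend over 127402 peaks, had a median of -1.13 over the members against 0.10 over all tested peaks. All 639 were called lower at a Benjamini-Hochberg adjusted p under 0.05, where 2.91% of all tested peaks were called lower and 11% higher. Of the distal peaks with a mean control value of at least 20, 3.67% were called lower and 12.4% higher. Nothing is read from the members' count, which the rule favours. The authors' deposited table lists 613 of the 639 as lower at an FDR under 0.05, against 1.8% of all its peaks. The median log2 fold of the members in that table was -0.62, a smaller fall than the -1.13 given above. The reason for this difference was not tested. The groups were kept apart by the rule, as they were at 4.47% of all peaks, but often narrowly. The lowest control value was at least 1.5 times the highest paused value at 165 members, and less than 1.1 times at 97.

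Weak peaks made up most of the set. Of the members, 419 had a mean control value under 30, 175 lay from 30 to 50 and 45 at 50 or more. This is 1.69%, 0.711% and 0.147% of the distal peaks in each range. At the median member there were 71 reads in control replicate 1 and 18 to 22 in the other controls, but 7 to 11 in the paused libraries. Counting alone then gives an error of 0.43 to 0.55 on the log2 scale in a paused library. In 97 members at least 1 paused library held 3 reads or fewer, and in 1 member a paused library held none.

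**Figure D2:**
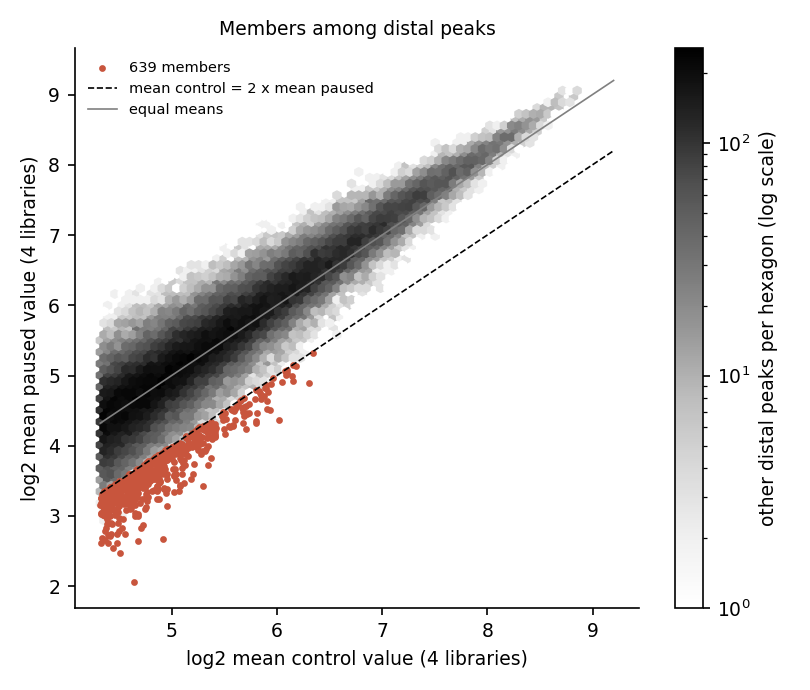
Mean paused against mean control value of distal peaks with a mean control value of at least 20, both as log2, with the 639 members in red and all others as grey density on a log scale. The members fill the region under the dashed line where the control mean is 2 times the paused mean, mostly between control means of 20 and 50.

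The edge of the set is not a gap in the data. The members closest to the threshold were at chr2:157050104-157050304 inside Soga1, with means of 35.1 and 17.5, and at chr3:81926861-81927061 near Ctso, with means of 27.4 and 13.7. Just outside lay chr17:27632361-27632561 inside Rps10, with 21.6 and 10.8, and chr5:113991265-113991465 inside Ssh1, with 27.2 and 13.6. Another 3274 distal peaks had separated groups with a smaller ratio, and 115 had a ratio past the threshold with overlapping groups.

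Among members of at least median strength, the largest ratio was at chr11:62610372-62610572, inside Lrrc75a. Its control values were 30.4, 32.3, 42.3 and 16.2 and its paused values 10.4, 1.58, 7.76 and 5.86, a ratio of 4.74. The value of 1.58 is 1 read, and control replicate 4 was low. The fall at chr12:86790237-86790437, between genes and 21312 bp from an end of Lrrc74a, was more even. There the control values were 36.3, 43.0, 33.9 and 44.1 and the paused values 6.92, 9.46, 13.96 and 12.9. The lowest control library was well above the highest paused one, and the log2 change was -1.81 (SE 0.26).

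The best measured of these 10 peaks was chr9:119095995-119096195, 2593 bp from an end of Plcd1, which codes for a phospholipase C. It had control values of 56.7, 70.5, 69.4 and 63.2 and paused values of 17.3, 18.9, 29.5 and 16.4. The groups were far apart, at 64.9 ± 6.37 against 20.5 ± 6.06 (SD, n = 4), with a log2 change of -1.65 (SE 0.20). At chr15:66877941-66878141, 13328 bp from an end of Ccn4, a secreted Wnt target, the controls were close together at 31.1, 37.02, 38.95 and 38.2. The paused libraries there were spread from 3.15 in replicate 2 to 23.4 in replicate 4, so that the size of that fall is poorly known.

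The other 6 peaks had ratios from 3.11 to 3.50. They lay near Efnb2, which codes for the ephrin-B2 ligand; inside Pknox2, a homeodomain factor gene; near Bcas1; inside Fry; inside Hpcal1, a neuronal calcium sensor gene; and inside Crebl2, nearest to an end of Gpr19. The tightest paused values were those of the Hpcal1 peak, chr12:17733126-17733326, at 10.8 ± 1.31 against 33.7 ± 5.61 in controls (SD, n = 4). The loosest control values were those of the Bcas1 peak, chr2:170247774-170247974, from 18.3 in replicate 1 to 40.6 in replicate 3. No 2 of the 10 shared a nearest gene.

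**Figure D3:**
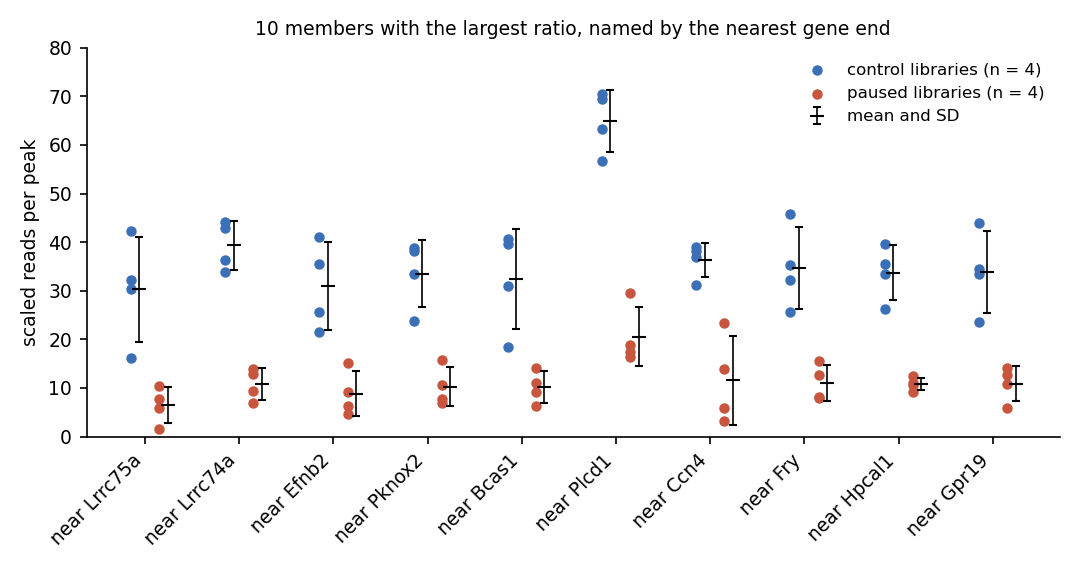
Scaled reads per peak in the 4 control and 4 paused libraries at the 10 members of at least median strength with the largest ratio, named by the nearest gene end, with the mean and SD beside the points. The groups are separated at every peak, by the choice of members, and the peak near Plcd1 is the strongest, with a control mean of 64.9 and a paused mean of 20.5.

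Most of the strongest members in control cells lay near the 2-fold that the rule asks for. The highest was chr7:127679220-127679420 inside Bcl7c, which codes for a chromatin remodeller subunit. It had control values of 79.2, 91.96, 69.4 and 85.2 and paused values of 46.1, 33.1, 37.2 and 43.4, a ratio of 2.04. The next, chr18:30317988-30318188 inside Pik3c3, the gene of a lipid kinase of autophagy, had a larger ratio of 2.67. Its control values of 64.7, 57.3, 91.4 and 102.9 were wide apart, with replicates 3 and 4 high, and its paused values were 42.7, 25.2, 20.2 and 30.5. The other 6 of the 8 strongest had control means from 68.2 to 72.6 and ratios from 2.01 to 2.35. They lay near Safb2, Ptbp2, Ppl and Crb2 and inside BC034090 and Prss22. The Ptbp2 peak, nearest to a splicing regulator gene, was 227218 bp from it.

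Members seldom lay side by side. The median distance from a member to the next was 757110 bp, and 44 members (6.89%) had another within 50 kb. The 22 stretches of members within 50 kb of each other held 2 each. The closest pairs were inside Myocd, which codes for a coactivator of muscle genes, 1350 bp apart; inside Sntb1, a syntrophin gene, 1560 bp apart; and 1581 bp apart on chromosome 13, at 54066 and 55647 bp from an end of the forkhead gene Foxf2. No other peak lay between the members of any of these pairs.

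The Foxf2 pair held the member with the lowest paused mean, 4.155. At chr13:31685372-31685572 the control values were 20.7, 20.3, 33.9 and 24.98 and the paused values 8.07, 0, 6.21 and 2.34, the largest ratio of all members at 6.01. Its neighbour at chr13:31686953-31687153 had 23.9, 16.7, 33.9 and 27.9 against 5.77, 9.46, 6.21 and 3.51, a ratio of 4.10. In both, control replicate 3 was the highest library. In the other pairs 1 member fell far more than its partner. The ratios were 3.51 and 2.05 in Myocd, and 2.01 and 3.69 in Sntb1.

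By gene, 2 stood out for holding several members, and they were picked after their counts were seen. Arhgef3, which codes for a guanine nucleotide exchange factor, held 4 members among 33 distal peaks of sufficient strength, spread over 207 kb, with ratios from 2.10 to 2.53. Ptprg, a receptor phosphatase gene, held 3 among 40. Another 9 genes held 2 each. Both Arhgef3 and Ptprg are long genes with many peaks, and most of those peaks were no members.

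Non-coding genes lay close to some members. The span of such a gene, extended by 1 kb, took in the centre of 108 members, and for 95 of these it was a long non-coding RNA gene. This measure was not counted over other distal peaks. Inside a long non-coding RNA gene lay 82 members (12.8%), against 11.2% of distal peaks of sufficient strength. An end of a long non-coding RNA gene was within 1 kb at 24 members, 3.76%, which compares with 4.71% of distal peaks of sufficient strength. Of the 6 strongest members at non-coding genes, the one with the least spread was chr16:93807946-93808146, 73 bp from an end of Gm30881 and inside Dop1b. Its controls read 52.2, 58.5, 55.9 and 55.8 and its paused libraries 21.9, 20.5, 20.2 and 18.8, so that the SD was 2.60 and 1.30 around means of 55.6 and 20.3. A peak at chr7:3451236-3451436, 974 bp from Gm35037, went from 59.6 ± 8.21 to 28.3 ± 5.83 (SD, n = 4). A peak inside the olfactory receptor pseudogene Olfr400-ps1, chr11:74105186-74105386, went from 57.8 ± 12.1 to 26.3 ± 7.26 (SD, n = 4), with control replicate 3 highest at 74.5. The other 3 of these 6 lay inside Mogat1, inside Cma2 and near Max, with ratios from 2.00 to 2.18.

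Single members lay near genes of the pathways of interest, in small numbers. Of the 58908 distal peaks of sufficient strength within 50 kb of any gene end, 0.83% were members, 2229 (3.78%) were called lower and 6598 (11.2%) higher, and the counts of each list below are to be read against these shares. Of 217 such peaks nearest to pluripotency genes, 2 were members. They were at chr1:13067081-13067281, 46247 bp from an end of Prdm14, and at chr5:119646993-119647193, 23441 bp from an end of Tbx3, both genes of factors that maintain the naive state. The Prdm14 peak had control values of 38.4, 31.05, 25.4 and 45.6 and paused values of 17.3, 9.46, 17.1 and 15.2. The Tbx3 peak had 22.5, 26.3, 32.2 and 24.98 against 10.4, 7.89, 10.9 and 16.4. In both, every control library was above every paused one, by the rule. In the whole list 5 peaks (2.30%) were called lower and 41 (18.9%) higher. The balance of higher to lower calls depends on the scaling, as given at the end, and the difference of the list from other peaks was not tested. Formative and primed genes had 1 member among 133 peaks, near Pou3f1, with 8 called lower and 18 higher. BMP and Id genes had 0 members among 96, with 4 lower and 20 higher, and germ layer regulators 0 among 118, with 3 lower and 13 higher.

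The Nodal and Smad2 list had 1 member among 122 peaks, of which 4 were called lower and 16 higher. It lay at chr3:31126974-31127174, 4151 bp from an end of Skil, which codes for a repressor of Smad signalling and is itself a Smad target. Its control values were 17.98, 22.7, 18.6 and 26.5 and its paused values 11.5, 7.89, 13.96 and 9.37. It was among the weaker members, and its groups came within a few units of each other. The list of FGF, Wnt and Hippo genes had 2 members among 218 peaks (13 lower, 27 higher), inside Wnt3 and 5708 bp from an end of Ccn1, a gene switched on by Yap and by serum.

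Of the lipid genes, Scd2, which codes for a fatty acid desaturase, had a member at chr19:44311531-44311731, 4767 bp from an end of the gene. It went from 50.2 to 24.8 and was picked after its values were seen. No member was nearest to Pparg.

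The list of mTOR, lysosome and autophagy genes had 3 members among 160 peaks, of which 9 (5.63%) were called lower and 18 (11.3%) higher. They lay near Ddit4 and inside Deptor, both genes of mTOR inhibitors, and inside Rptor, the gene of the mTORC1 scaffold. The peak at chr10:59964202-59964402, 12532 bp from an end of Ddit4, had control values of 27.3, 23.9, 23.7 and 23.5 and paused values of 8.07, 9.46, 9.31 and 16.4. Its controls were close together, and paused replicate 4 was the highest paused library. The peak at chr15:55142447-55142647 inside Deptor had 31.5, 37.02, 42.3 and 47.02 against 25.4, 12.6, 27.9 and 11.7, with paused replicates 1 and 3 well above 2 and 4. The Rptor peak, outside the rule for named peaks and given after its values were seen, had 20.05, 13.1, 25.4 and 23.5 against 10.4, 9.46, 9.31 and 11.7. The ribosome, translation and Myc list had 2 members among 103 peaks (7 lower, 14 higher), inside Eif3b, a translation initiation factor gene, and near Max, the gene of the partner of Myc. Each of these counts of members is small, and the difference of its share from 0.83% was not tested.

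The members near Fos family genes were looked at because of the AP-1 letters, after their values were seen. A member at chr5:32192075-32192275, 34335 bp from an end of Fosl2, had control values of 27.7, 26.3, 27.1 and 20.6 and paused values of 5.77, 14.2, 10.9 and 10.5. A member at chr19:5445016-5445216, 2582 bp from an end of Fosl1, had 47.01, 44.2, 60.96 and 26.5 against 24.2, 22.1, 21.7 and 17.6. In the second, control replicate 4 came close to the highest paused library. The distal peaks near Fos and Jun genes were not counted, so there is no share to set these members against. Nothing about AP-1 is read from them.

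The AP-1 letters could be followed in distal peaks that are not members. Taking the tested distal peaks of sufficient strength with at least 100 bases in a promoter window and leaving out the members, 86 held TGANTCA in those bases and 1609 did not. The median log2 change of the peaks with a match was 0.002, and 48.8% of them had a lower value in paused cells. Without a match the median was 0.17 and 18.8% were lower. Those called lower were 4 of 86 (4.65%) against 16 of 1609 (0.994%), and those called higher 8.14% against 13.2%. The largest falls were at chr5:29699868-29700068 near Ube3c, from 28.6 ± 10.4 to 13.8 ± 5.77, and at chr7:114948366-114948566 near Insc, from 47.9 ± 5.56 to 28.4 ± 7.39 (SD, n = 4). Their limma-trend adjusted p was 0.0142 and 0.00868. More of the matched peaks were called higher, 7 of 86. The largest rise was at chr6:71609097-71609297 near Kdm3a, from 73.2 ± 14.2 to 115.4 ± 8.63 (SD, n = 4). The next was at chr6:100180947-100181147 near Rybp, from 121.9 ± 20.1 to 180.5 ± 13.2 (SD, n = 4). The limma-trend adjusted p of these rises was 0.00141 and 0.00171. The count of 4 lower calls was 1 without control replicate 3 or paused replicate 2. It was 2 without control replicate 1 or 4 or paused replicate 1. The count of 16 was 9 without paused replicate 4 and 10 without control replicate 1. Under other scalings both counts of lower calls were larger and both counts of higher calls smaller. Lower calls with and without a match were 6 and 24 with TMM, 10 and 36 with total reads, 7 and 42 after loess correction and 8 and 36 in edgeR. Higher calls were 4 and 84, 3 and 61, 2 and 50, and 4 and 99 in the same order, against 7 and 212 in the deposited scaling.

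The other 10 motifs showed smaller differences in the median. Their medians with a match ran from 0.15 for the B box to 0.22 for the octamer, and the medians without a match from 0.16 to 0.17. Peaks with AP-1 letters were weaker than those without, with a median control mean of 70.2 against 124, and the share of members was highest among weak peaks. After the loess correction on peak strength the medians were -0.13 with and -0.01 without a match. Under TMM scaling they were -0.10 and 0.07, and with 1 library left out from -0.01 to 0.03 and from 0.15 to 0.19. In peaks within 1 kb of a gene end the median was 0.19 with a match and 0.19 without. There too more of the matched peaks were called lower, 4 of 154 (2.60%) against 17 of 5913 (0.288%), and 15.6% against 8.91% had a lower value in paused cells. The difference between matched and unmatched peaks was not tested, and the part of strength in it was not tested beyond the loess values.

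**Figure D4:**
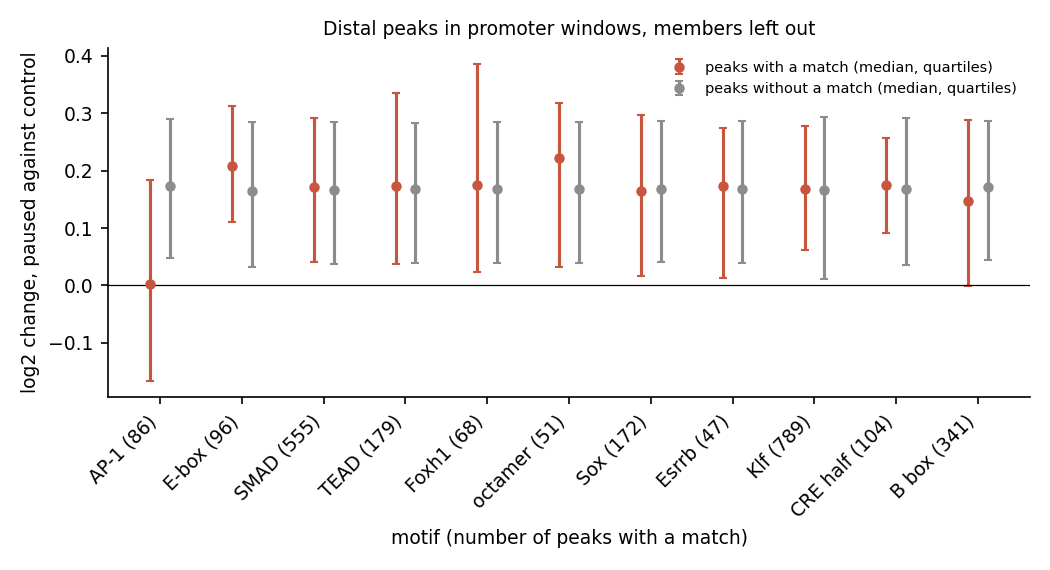
Median log2 change of paused against control cells, with quartiles, for distal peaks in promoter windows with and without a match to each of 11 motifs, the members left out; the number of peaks with a match stands beside each name. Peaks with AP-1 letters have a median of 0.002 where the other 10 motifs lie between 0.15 and 0.22.

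Peaks within 5 kb of the members showed almost no median change. Lower calls were more frequent among them, and higher calls less frequent, than among all tested peaks. Of 682 tested peaks that are not members and lie within 5 kb of one, 41 (6.01%) were called lower, against 2.91% of all tested peaks, and 42 (6.16%) were called higher, against 11%. Their median log2 change was -0.01, against 0.10 for all tested peaks. Within 2 kb 12 of 149 were called lower (8.05%) and 4 higher, with a median of -0.07. Between 20 and 50 kb away 3.91% were lower, and beyond 100 kb 2.26%, where the median was 0.11. The count within 5 kb fell to 24, 27 and 23 without control replicate 1, 3 or 4, as did the count over all peaks, to 2321, 2317 and 2301. Around the 1611 distal peaks gained by the mirror rule, 8 of 967 peaks within 5 kb were lower and 157 higher.

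How much of the fall holds in libraries that did not choose the peaks was read by leaving out 1 replicate number in both groups, a reading added after the data were seen. Chosen without replicate 1, the peaks numbered 1050, and 966 of them (92.0%) had a higher value in control replicate 1 than in paused replicate 1. The share was 86.6%, 84.3% and 87.9% for replicates 2, 3 and 4. Those sets held 936, 923 and 836 peaks, of which 489, 465 and 468 were members, as were 562 of the 1050. The shares and ratios given here are therefore those of wider sets, and not of the members alone. Distal peaks of like strength were all those with a mean control value from 20 up to the 90th percentile of the chosen peaks. Among them the share was 49.9%, 43.3%, 44.3% and 47.6%. The ratio of summed values was 1.58, 1.63, 1.61 and 1.72 in the left-out libraries against 2.30 to 2.32 in the 6 libraries used. It was 0.904 to 0.966 in all distal peaks of like strength. In the left-out libraries most of the chosen peaks kept the direction, with a smaller fall than in the libraries that chose them. Whether the left-out libraries came from separate cultures is not in the labels, nor whether equal numbers pair libraries. The reading is therefore no independent test of the fall. A fall of at least 2-fold was seen in 29.3% to 37.2% of the chosen peaks, and in 3.54% to 5.41% of the like-strength peaks.

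**Figure D5:**
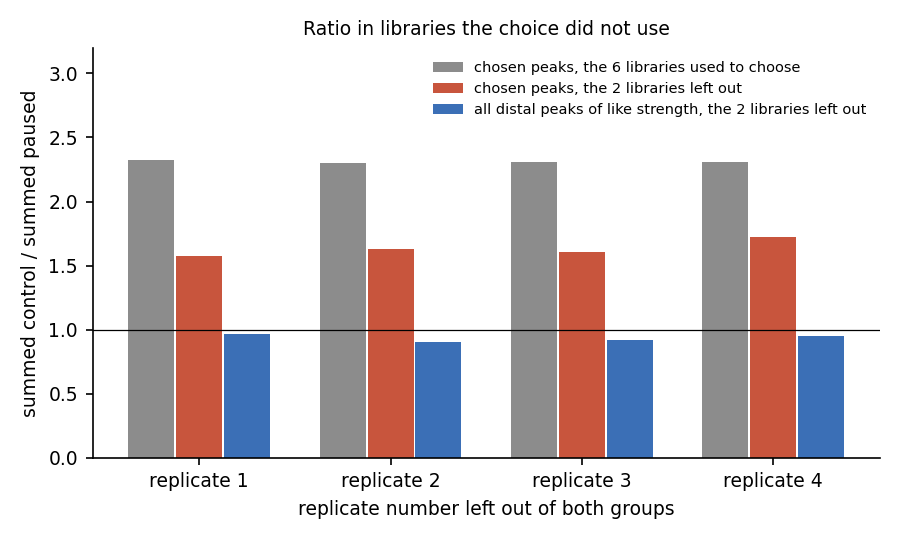
Ratio of summed control to summed paused values after leaving out 1 replicate number: grey bars in the 6 libraries used to choose peaks, red bars in the same peaks in the 2 libraries left out, and blue bars in all distal peaks of like strength in those 2 libraries. The red bars lie between 1.58 and 1.72, under the grey bars at 2.30 to 2.32 and over the blue bars at 0.904 to 0.966.

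The members were about as often inside genes as other distal peaks and somewhat more often near a gene end. Inside a protein-coding gene lay 337 of the 639 (52.7%), against 51.8% of distal peaks of sufficient strength. The median distance to a gene end was 15772 bp, against 18496 bp, and 25.7% lay within 5 kb of one, against 19.3%. The distal peaks gained by the mirror rule had 37.9% inside a gene, a median distance of 37899 bp and 10.4% within 5 kb. By chromosome the share of sufficient peaks that were members ran from 0.43% on chromosome 3 (17 members; 95% Wilson interval 0.268% to 0.687%) to 1.12% on chromosome 12 (39 members; 0.818% to 1.52%). These intervals cover counting only, and none of these differences was tested.

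The number of members rests on the scaling of the libraries. The deposited values summed to more in every paused library than in any control library, and all 639 members were also chosen, among 1129 peaks, after TMM scaling of the reads. Dividing instead by each library's total gave 1516 peaks, again with all 639. After a loess correction on peak strength 639 peaks were chosen, of which 474 were members. Of all limma-trend calls 79.0% were higher in paused cells, 58.9% with TMM, 59.0% with the loess correction, 45.6% with total reads and 55.5% in edgeR with TMM. The median change of all peaks moved from 0.10 to 0.001 with TMM and to -0.05 with total reads. Without paused replicate 3 the rule chose 1003 peaks.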

How the data were processed

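ATAC-seq of 4 control and 4 paused libraries was deposited as 1 table of 134407 peaks, each 201 bp wide. FastQC, Trim Galore, Bowtie2 2.4.1, MACS3 3.0.3 and DiffBind 3.16.0, and the build mm10, are named in the submitters' processing notes without their roles. The deposited signal is reads per peak divided by 1 factor per library; 100% of values were whole multiples of 1 step within 0.0075. Deposited log2 fold and p-values of the authors' comparison, per the file headers, were used only where their table is named. Unused sample columns numbered 0.

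Members were found by the stated rule with gene spans of GRCm38.p6. The members, gene lists and motifs were chosen with earlier results of these data known. limma 3.58.1 (R 4.3.3) was fitted to log2(value + 1) of the 127402 peaks with a mean of at least 10, without covariates, at a Benjamini-Hochberg adjusted p under 0.05; all 639 members passed this filter. Fold changes on this scale understate the change of weak peaks. edgeR 4.0.16 on the recovered reads was an alternative. The fits were also run on simulated reads, with equal numbers of raised and lowered peaks and the same variability at every peak. No shift in scaling between the groups was simulated, so the fits were not tested under the scaling shifts described above. Named peaks were the 10 largest ratios among members of at least median strength, the 8 highest control means, up to 6 near non-coding genes, up to 2 per gene list, the 3 closest stretches and those at the threshold; others are said to be picked later, and 1 gene list is not reported in full here. No genome sequence was used, so motifs planned for a genome were searched in promoter windows, a choice made after the values were seen. Depth was 4434037 to 21161767 reads in peaks; intervals cover counting error only.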

Additional observations from a re-analysis of the deposited data

Results flagged for a closer look

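In 92 groups of 4 values looked at, 3 had 1 library far from the other 3, and chance flags about 1 in 20 such groups. Reads in peaks of the control libraries had a gap of 0.891 of their range, from control replicate 1 with 21161767 to the others with 4434037 to 6262445. The member near Ddit4, chr10:59964202-59964402, was set apart in both groups. In controls replicate 1 read 27.3 and the others 23.5 to 23.9, a gap of 0.9 of the range. In paused cells replicate 4 read 16.4 and the others 8.07 to 9.46, a gap of 0.833 of the range.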

How the results depend on the processing

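The number of peaks chosen by the rule was 2478 at a ratio of at least 1.5 and 39 at a ratio of at least 3, and 1293 and 45 at a control mean of at least 10 and of at least 50. It was 1129 with TMM and 1516 with total reads. Leaving out 1 library gave 645 to 1003 peaks, and leaving out 1 number in both groups 836 to 1050. With control replicate 1 thinned to the shallowest library, an alternative chosen after seeing the data, 659 were chosen, of which 515 were members. Members called lower numbered 552 to 614 with 1 library left out, 599 after loess correction and all 632 tested in edgeR. All peaks called lower numbered 6861 with total reads, 6853 in edgeR, and 2301 to 3893 with 1 library left out. All peaks called higher numbered 7629 with TMM, 5739 with total reads, 6475 with loess, 8548 in edgeR, and 8963 without paused replicate 4 to 12696. Neighbours called lower numbered 73 with total reads, 80 in edgeR, 12 within 2 kb and 144 within 20 kb, and 23 to 44 with 1 library left out. The cause of these shifts was not tested. With the replicate number as a block, 639 members, 55 neighbours and 4623 peaks in all were called lower and 17371 higher, and no named peak lost its call. Same-numbered libraries correlated in their deviations from the group means at 0.0358 to 0.133, and libraries of unlike number at -0.105 to 0.0703. Each control library correlated best with the paused library of its own number, except control replicate 2, best with paused replicate 1 (0.0703). The labels do not say that the numbers pair libraries, so the main fit took no pairs. Whether same-numbered libraries shared a batch was not tested. Of 645 fits of the 43 named members under alternatives, 629 kept their call, 16 lost it at 5 peaks and 0 changed sign, which the choice of these peaks on the same libraries largely fixed and which is no sign of stability. Depth limits the precision of single members, with 7 to 11 paused reads at the median one.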
